A study of Gallus gallus with 4 samples.

Results

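The genes of the cytoplasmic ribosomal proteins, the protein parts of the ribosome that makes the proteins of the cell, were followed in the embryonic chick optic tectum, the midbrain target of retinal axons. Probes were taken as members where the gene name in the spot tables was that of a large (RPL), stalk (RPLP) or small (RPS, RPSA) subunit protein, or where the probe description named a ribosomal protein L or S. Kinases of RPS6 and 9 probes described as mitochondrial were left out. This left 70 of 42034 gene probes, which stood for 65 of 40552 features, a feature being a named gene or an unnamed probe. Of these, 41 were subunit genes (27 large, 14 small, 46 probes), 4 were paralogs of subunits (RPL22L1, RPL7L1, RPL3L, RPS27L) and 1 was RPS19BP1, which binds RPS19 and is no subunit. RPL26L1, a paralog of RPL26, was counted with the subunit genes. The rest were 8 expressed-sequence contigs described by their likeness to an animal ribosomal protein, 10 contigs described by their likeness to a protein of a bacterium or protist, and 1 probe whose gene name (SMARCAL1) and description (ribosomal protein L37a) disagreed. The stalk protein gene RPLP0 was not among the named probes.

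A ribosome joins a small subunit, which reads the messenger RNA, to a large subunit, which links amino acids, and each ribosomal protein is normally built into it in a single copy. Only the acidic stalk proteins RPLP1 and RPLP2 are present in several copies, as dimers held by RPLP0, where they recruit elongation factors. In vertebrates the mRNAs of these proteins share a pyrimidine-rich start that places their translation under the kinase MTOR, and growing, dividing cells make more of them than resting cells do. In the developing tectum, progenitors that divide near the ventricle give way to neurons that settle in layers.

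There were 4 groups, each with 1 two-colour array and no dye swap. Each channel held total RNA pooled from 60 pieces of bisected tecta of incubated Gallus gallus embryos, and the labels name no strain, genotype or treatment. Posterior tectum (Cy5) was set against anterior tectum (Cy3) on the anteroposterior (AP) axis at Hamburger-Hamilton stage HH35 and again at HH37. Medial tectum (Cy5 by the labels) was set against lateral tectum (Cy3) on the mediolateral (ML) axis at HH30 and again at HH35. The authors' deposited table names its ML ratios medial over lateral but runs as Cy3 over Cy5, so the ML direction is not settled and ML ratios are given by channel.

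The array of the AP axis at HH37 was the dimmest. Median background-subtracted intensities on the 4 arrays ranged from 99 to 194 in Cy5 and from 107 to 229 in Cy3, and both lowest values were those of AP at HH37. Between 63.2% and 79.5% of gene probes were above background in at least 1 channel. The share was 63.2% to 79.4% in Cy3 and 41.2% to 59.5% in Cy5. Dim features thus entered almost only through Cy3, which is anterior tectum on the AP axis. Between 6 and 66 probes per array were saturated, the fewest again on AP at HH37. Of 12 listed tectal transcription factors, 7 (PAX7, MEIS2, TFAP2B, LHX1, LHX9, GATA2, GATA3) were on the array by name, and all 7 were measured. Most gene probes were measured, and so were all 6 muscle and cartilage markers on the array, so this is no test of the tissue label. A ratio is given throughout as the log2 of Cy5 over Cy3 after normexp background correction and loess, and the number of arrays limits the precision. No pool was repeated. P-values of the ratio fits thus measure the spread between the stages of an axis, moderated by limma towards that of all features. The prior had 11.2 degrees of freedom against 2 residual ones. In the fits of total signal by stage, the spread is that between the 2 HH35 arrays, moderated likewise.

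Whether a ribosomal protein gene could be read at all went with the kind of probe it had. Of the 31 subunit probes designed on a RefSeq mRNA, 30 were above background on all 4 arrays, with a median log2 signal of 14.35 over all 31. The 15 probes designed on an expressed sequence tag or other GenBank sequence had a median of 6.51, and 6 of them were above background on all 4 arrays while 5 were above it on none. Over all gene probes the same contrast was smaller, with medians of 8.64 for RefSeq mRNA probes and 7.05 for GenBank probes. Some genes, among them RPL21, RPL22, RPL5 and RPL7A, had a probe of each kind, and the signals of such a pair differed, so signals are not compared between genes. RPL21 of the large subunit gave 14.59 on its RefSeq mRNA probe and 6.37 on the other. RPL22, an RNA-binding protein of the large subunit, gave 14.35 and 6.80.

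**Figure D1:**
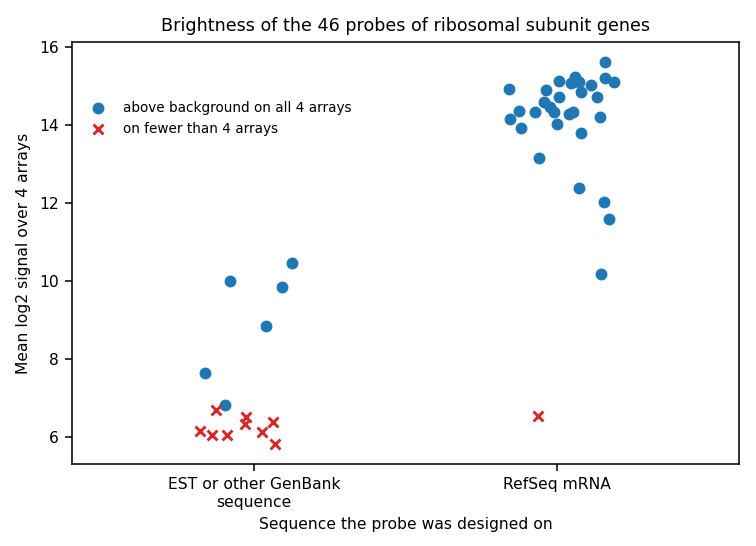
Mean log2 signal over 4 arrays (y axis) of the 46 probes of ribosomal subunit genes, by the kind of sequence the probe was designed on (x axis). Circles are probes above background on all 4 arrays and crosses are probes above it on fewer; RefSeq mRNA probes lie around 14.35, while most of the other probes lie near 6.51.

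In all, 32 of the 41 subunit genes were measured on all 4 arrays (19 large, 13 small), 3 on 2 or 3 arrays, 2 on 1 array and 4 on none. The 4 that were above background on no array were RPL8, RPL17, RPL26L1 and RPL30, each represented by a GenBank probe, which says only that these probes gave no reading. RPL10A, RPL35 and RPS21 were tested on 1 array per axis, with a ratio error pooled from other features alone. RPL9 and RPL12 were measured on 1 array and not tested. Among the 32 genes, 29 lay among the 3051 brightest of the 30509 features fitted, with probe signals from 7.62 (RPL7, on a GenBank probe) to 15.63 (RPS3, a small-subunit protein at the entry of the mRNA). Saturated pixels above 5% of a spot were found for 9 of the 32 genes on at least 1 array, RPS3 on 3.

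Along the AP axis, no subunit gene passed the test for a difference between posterior and anterior tectum. Of 35 subunit genes tested, 0 passed limma at an adjusted p of 0.05, against 3.54% of 30278 features, of which 3.29% were higher in anterior and 0.251% higher in posterior tectum. Among features with a RefSeq mRNA probe, 347 of 8426 were called higher in anterior and 13 in posterior tectum. Of the 1199 of these among the 3051 brightest features, 144 and 0 were. At an unadjusted p under 0.05 there were 7 subunit genes, 6 higher in anterior and 1 higher in posterior tectum, against 23.2% of all features. The variance model with an intensity trend and robust estimate also called 0, with 6 at an unadjusted p under 0.05. The median ratio of the 32 genes measured on all arrays was -0.11, and 22 of them were below 0. Features with a RefSeq mRNA probe had a median of -0.12 with 65.2% below 0, and all features had a median of -0.017. In pooled tissue, fewer cells of a type and less RNA per cell cannot be told apart.

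The AP arrays at the 2 stages did not order the genes alike. At HH35 the median ratio was -0.0099 and the genes were split 16 posterior to 16 anterior, while at HH37 it was -0.14 with 9 higher in posterior and 23 higher in anterior tectum. Below 0 on both arrays were 11 of the 32 genes, against 36.1% of all features measured on all arrays, and above 0 on both were 4, against 32.2%. Across the 32 genes the ratios at HH35 and HH37 had a Pearson correlation of -0.0024, against 0.44 across the 22473 features measured on all 4 arrays, as a description over genes that share the same pools of RNA. At a ratio of at least 1.5-fold, 0 of 32 genes were higher in posterior tectum at HH35 (2.05% of all features) and 2 were higher in anterior tectum (6.05%). At HH37, 1 was higher in posterior (1.51% of all features) and 3 were higher in anterior tectum (9.92%).

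RPLP2, a stalk protein, came nearest to the threshold. Its ratio was -0.56 at HH35 and -0.50 at HH37, a mean of -0.53 ± 0.15 (SE from limma, 2 arrays) with an adjusted p of 0.062. Both AP arrays had it higher in anterior tectum by similar amounts. It was higher in the same channel on the ML arrays, at -0.24 at HH30 and -0.40 at HH35, and AP minus ML was -0.21. With no dye swap, position and dye cannot be told apart for RPLP2. Its partner RPLP1 gave 0.046 at HH35 and -0.11 at HH37, so it lay near 0 on both. RPL36 was also below 0 on both arrays, at -0.37 and -0.29, as was RPL22 on its RefSeq mRNA probe, at -0.26 and -0.65. The GenBank probe of RPL22, also measured on all 4 arrays, read 0.52 and 0.046, and with the mean over both probes the AP ratio was -0.089 in place of -0.46.

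RPS24, a small-subunit protein, had the lowest ratio at HH35. Its background-subtracted intensity there was 1709 in posterior and 4254 in anterior tectum, a normalised ratio of -1.0, the only subunit gene at 2-fold on any array (0.629% of all features on that array were as far towards anterior). At HH37 its ratio was -0.08, and the mean of -0.54 ± 0.20 had an adjusted p of 0.13 in limma. The difference was thus carried by 1 array. RPL23A of the large subunit was likewise low at HH35 (-0.49), and gave 0.22 at HH37.

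RPSA, a small-subunit protein also known as a laminin receptor, had the lowest ratio at HH37. Its background-subtracted intensity was 5518 in posterior and 10175 in anterior tectum at HH37, a ratio of -0.80, against -0.044 at HH35. The mean was -0.42 ± 0.18 with an adjusted p of 0.18 in limma. RPL22 on its RefSeq mRNA probe (-0.65) followed it at HH37.

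RPL37, a large-subunit protein, had ratios on opposite sides at the 2 stages, -0.48 at HH35 and 0.59 at HH37, the second being the highest of the subunit genes. RPS3 had 0.098 at HH35 and 0.51 at HH37, and was saturated on 3 arrays. RPS27A, made as a fusion with ubiquitin and saturated on 1 array, had the highest subunit ratio at HH35, 0.37, and -0.10 at HH37, while RPS14 gave 0.35 and -0.088. Above 0 on both arrays by the widest margin were RPL7 (0.30 and 0.35) and RPL39 (0.28 and 0.25), both read on GenBank probes. None of these genes passed the threshold. With median centring in place of loess, 3 subunit genes passed (RPLP2 at -0.66, RPS24 at -0.82 and RPS3 at 0.55), while the calls over all features numbered 4885 in place of 1072. RPSA passed without AP at HH35 (-0.80) and RPS24 without AP at HH37 (-1.0). Each call then rests on the 1 AP array on which that gene lay further from 0, and its residual error comes from the ML arrays alone, the lone AP array being assumed to vary like them.

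**Figure D2:**
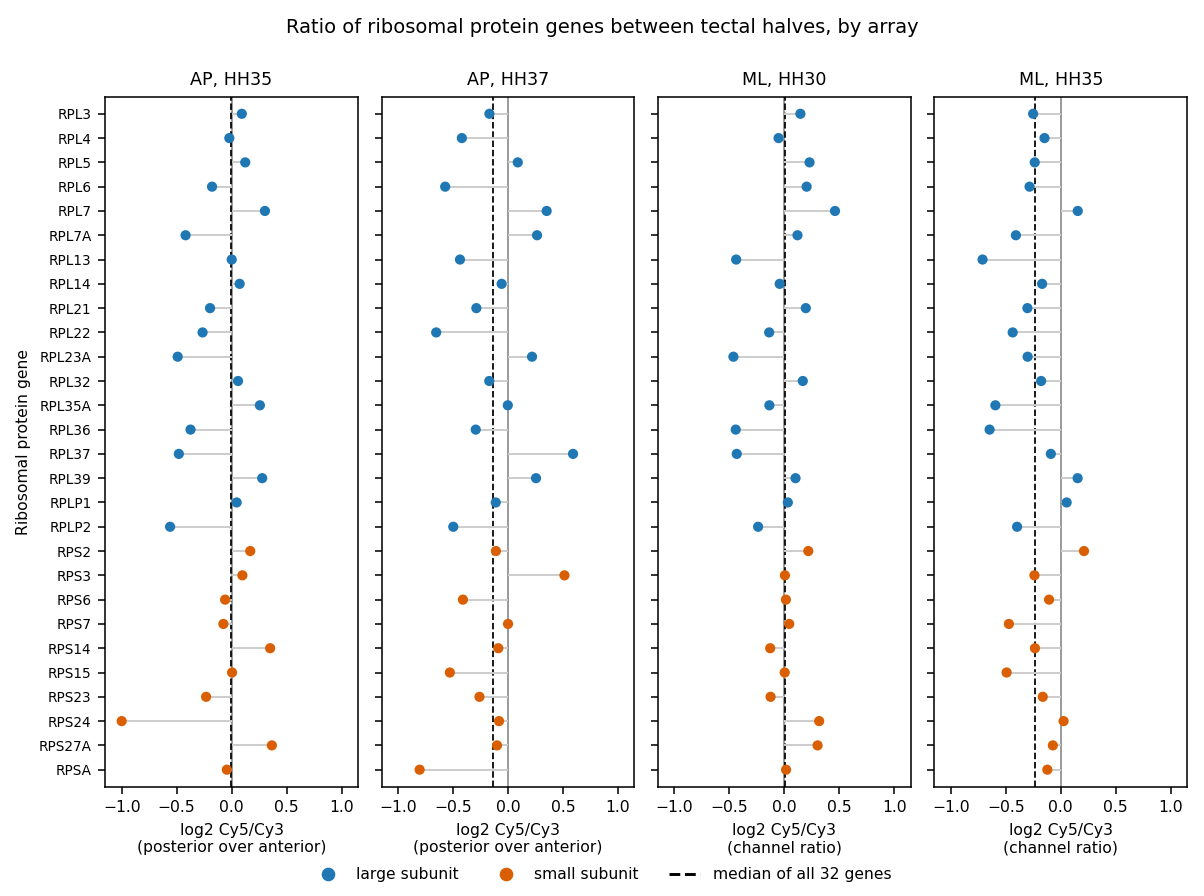
Log2 Cy5 over Cy3 (x axis) of 28 of the 32 ribosomal subunit genes measured on all 4 arrays (rows), in 1 panel per array, with large-subunit genes in blue, small-subunit genes in orange and the median of all 32 genes as a dashed line. Medians lie around -0.0099 (AP at HH35), -0.14 (AP at HH37), 0.0090 (ML at HH30) and -0.24 (ML at HH35), with RPS24 at -1.0 and RPSA at -0.80 the furthest from 0.

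Along the ML axis, no subunit gene passed the test either, 0 of 35 in limma, against 0.0231% of 30246 features. At an unadjusted p under 0.05 there were 6, all higher in Cy3, against 7.48% of all features, and with the trend and robust variance 0 and 5. The median over the 32 genes was 0.0090 at HH30 and -0.24 at HH35. At HH35, 27 of 32 genes were higher in Cy3 (65.7% of RefSeq mRNA features were), but with median centring in place of loess this was 15 of 32 and the median was 0.049. Below 0 on both arrays were 14 genes, against 31.4% of all features, and above 0 on both were 5, against 28.1%. At 1.5-fold, 0 genes were past it in either channel at HH30 (1.49% of all features in Cy5, 1.18% in Cy3). At HH35, 0 were past it in Cy5 (1.43%) and 3 in Cy3 (0.783%).

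RPL13 and RPL36, both of the large subunit, had the lowest mean ML ratios of the subunit genes. RPL13 had ratios of -0.44 at HH30 and -0.71 at HH35, a mean of -0.58 ± 0.16 with an adjusted p of 0.44 in limma. RPL36 had -0.44 and -0.65, a mean of -0.55 ± 0.15 with an adjusted p of 0.43. Both arrays had these genes higher in Cy3, and RPL35A, saturated on 1 array, was the third past 1.5-fold at HH35, at -0.60, with -0.14 at HH30. RPL23A (-0.46) and RPL37 (-0.43) were low at HH30 too. RPS15, saturated on 2 arrays, gave 0.0026 and -0.49.

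On the Cy5 side, RPL7 (0.46 at HH30 and 0.15 at HH35), RPS2 (0.22 and 0.21) and RPL39 (0.10 and 0.15) were above 0 on both ML arrays. RPS24 gave 0.32 at HH30 and 0.025 at HH35. RPL35, tested on fewer arrays, gave 0.48 at HH35 on a dim GenBank probe. None of these passed the threshold.

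The axes were set against each other in a contrast in which a dye effect common to all arrays cancels. Of 35 subunit genes, 0 passed in limma, against 0.0233% of 30015 features, and 2 had an unadjusted p under 0.05, against 8.21%. The median of AP minus ML over the 32 genes was 0.017. RPS24 had the lowest value at -0.71 and RPL35A, with its saturated spot, the highest at 0.49. Over all arrays, 6 of the 32 genes were below 0 on every array (among them RPL4, RPL22, RPL36, RPLP2 and RPS23), against 16.6% of all features, though the GenBank probe of RPL22 was above 0 on all 4, and 2 were above 0 on every array (RPL7, RPL39), against 16.8%. With no dye swap, position and dye cannot be told apart for these genes.

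Set against bright features, the position of the ribosomal protein genes depended on which bright features were taken. Their median ratio minus that of the 281 brightest features that are no members was -0.18 at HH35 and -0.062 at HH37 on the AP axis, and -0.13 at HH30 and -0.23 at HH35 on the ML axis. With median centring, a wider loess span or the authors' deposited values the median stayed below on each of the 4 arrays, with differences between -0.29 and -0.03, a comparison chosen after the values were seen and not tested. The wider set of the 3051 brightest features had medians of 0.11 at HH35 and -0.20 at HH37 on the AP axis, so the subunit genes (-0.0099 and -0.14) lay below it at HH35 and above it at HH37. Among the 1199 of these with a RefSeq mRNA probe the median was -0.25 on the AP axis and -0.11 on the ML axis. The subunit genes had -0.11 on each. These 1199 include subunit genes and reach down to dimmer features than most of them, so the 1199 are not matched in brightness. No set of RefSeq mRNA features as bright as most subunit genes was drawn. The medians themselves depended on the scaling: on AP at HH35 it was -0.0099 with loess and 0.19 with median centring.

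The total signal of an array, the mean log2 of its channels, holds both pieces and so stands for the whole tectum at its stage. Most ribosomal protein genes had their highest total signal at HH30 (22 of 32) and their lowest at HH37 (22 of 32). The share of all features with such an extreme was not counted, so these counts alone do not set the genes apart. The median over the 32 genes at HH35 was -0.43 against HH30, with 27 genes lower, and at HH37 it was -0.70 against HH35, with 26 genes lower. Over all features the corresponding medians were -0.017 and -0.0032, with 51.1% and 50.1% lower. Among features with a RefSeq mRNA probe they were -0.22 and -0.36, with 62.7% and 65.4% lower. In the 281 brightest features that are no members the medians were 0.035 and 0.14. Among the 1199 bright features with a RefSeq mRNA probe they were -0.23 and -0.55, with 61.0% and 70.1% lower.

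None of this passed a test. Limma called 0 of 32 subunit genes for HH35 against HH30 and 0 of 33 for HH37 against HH35, and 0 of 27559 and 0 of 25179 features (0% each). At an unadjusted p under 0.05 there were 0 and 1 subunit genes, against 1.65% and 1.51% of features. HH30 and HH37 are 1 array each, so stage and array cannot be told apart, and HH30 was read on an ML array while HH37 was read on an AP array. With arrays scaled to the 75th percentile in place of quantiles, the median at HH37 against HH35 was -0.12, where that of all features was 0.29, and 18 of 32 genes were lower.

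At a difference of at least 1.5-fold, 11 of 32 genes were lower and 0 were higher at HH35 than at HH30, against 20.4% of all features lower, 20.2% higher and 30.6% of RefSeq mRNA features lower. At HH37 against HH35, 18 were lower and 2 higher, against 25.7% lower, 26.1% higher and 38.6% of RefSeq mRNA features lower. The order HH30 above both HH35 arrays above HH37 was met by 17 of 32 genes, against 17.8% of features measured on all 4 arrays. Its share among RefSeq mRNA features, most of which were lower at each step, was not counted. This count alone thus does not set the genes apart from others on such probes. Large- and small-subunit genes lay on the same side of 0, with medians of -0.49 (19 genes) and -0.34 (13 genes) for HH35 against HH30 and of -0.58 and -0.86 for HH37 against HH35. Without the genes that had a saturated spot, the medians over 23 genes were -0.42 and -0.63.

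The HH35 arrays differed from each other as well. On the AP array the 32 genes had a median 0.21 above the ML array, with 7 of 32 lower, so the HH37 array stood at -0.89 against the AP array at HH35 and at -0.53 against the ML array at HH35. The 4 comparisons of an array with an array of the stage before gave negative medians for the 32 genes, from -0.31 to -0.89. They were negative for RefSeq mRNA features too, from -0.093 to -0.56.

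**Figure D3:**
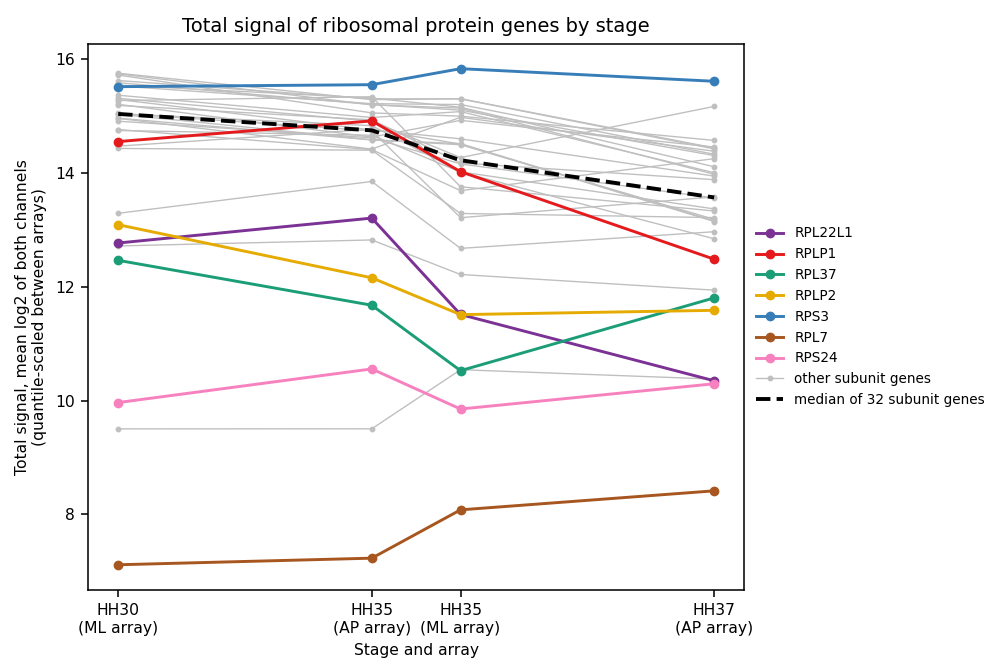
Total signal (y axis, mean log2 of both channels after quantile scaling) of 32 ribosomal subunit genes and the paralog RPL22L1 on the arrays of HH30, HH35 (2 arrays) and HH37 (x axis), with the median of the subunit genes as a dashed line. Most bright genes step down from HH30 to HH37, RPLP1 and RPL22L1 are lowest at HH37, and RPL7 is highest at HH37.

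RPLP1, a stalk protein, had the largest difference among subunit genes at the last step. Its total signal was 14.55 at HH30, 14.92 and 14.02 on the AP and ML arrays at HH35, and 12.49 at HH37. HH37 lay under every other array, at -1.98 ± 0.73 against HH35 with an unadjusted p of 0.042 and an adjusted p of 0.87 in limma. Its partner RPLP2 had 13.09 at HH30, 12.16 and 11.51 at HH35 and 11.59 at HH37. For RPLP2 the step lay between HH30 and HH35 (-1.26), and HH37 was level with the ML array at HH35.

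RPS14, a small-subunit protein, was also low at HH37, at -1.492 against HH35. It had 14.47 at HH30, 14.77 and 14.51 at HH35, and 13.15 at HH37, so its signal was level until HH35. RPL36 stood at -1.39 and RPL22 at -1.36 in the same comparison.

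Between HH30 and HH35 the lowest subunit genes were RPL37 (-1.36), RPLP2 (-1.26) and RPL6 (-1.07). RPL37 had 12.47 at HH30, 11.68 and 10.53 at HH35, and 11.81 at HH37, where it stood 0.70 above HH35. RPL6 had 15.05 at HH30, 14.74 and 13.22 at HH35 and 13.58 at HH37, so its difference at HH35 came mainly from the ML array.

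A few genes went the other way. RPL7 had 7.11 at HH30, 7.23 and 8.08 at HH35 and 8.41 at HH37, or 0.76 above HH35 at HH37. RPL39 had 9.50 at HH30, 9.50 and 10.54 at HH35 and 10.38 at HH37. RPS3 stayed between 15.52 and 15.84 on the 4 arrays, with saturated spots on 3 of them. RPL7 and RPL39 are the genes of the 32 that rest on a GenBank probe. In all, 6 of the 32 genes were higher at HH37 than at HH35, among them RPL37, RPL7A (0.58) and RPS23 (0.20) on RefSeq mRNA probes. RPL7A, saturated on 1 array, had 15.32 at HH30, 14.91 and 14.27 at HH35 and 15.17 at HH37.

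**Figure D4:**
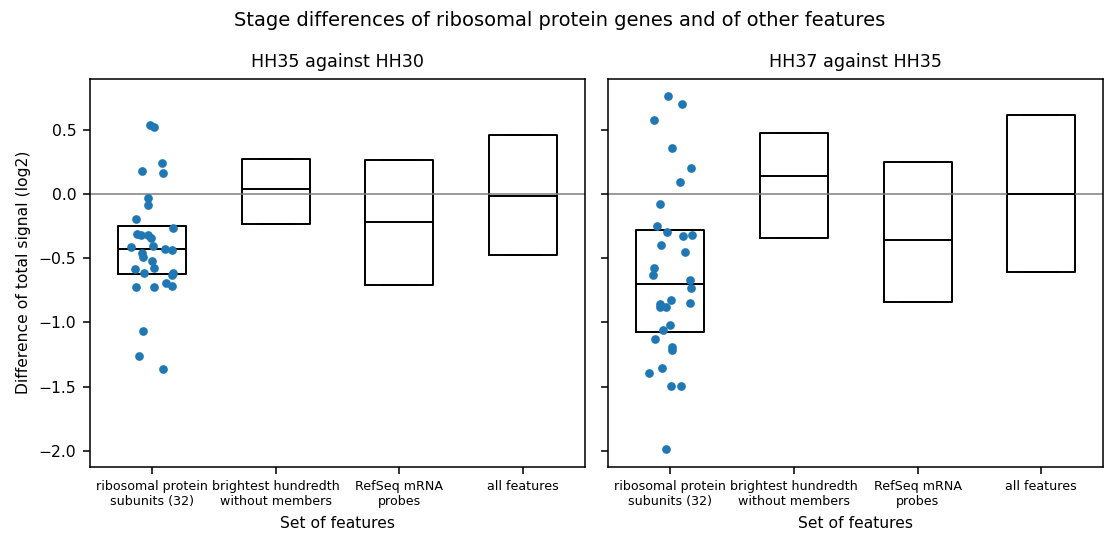
Difference of total signal (y axis, log2) at HH35 against HH30 (left) and at HH37 against HH35 (right) for 32 ribosomal subunit genes (points), the 281 brightest features that are no members, features with a RefSeq mRNA probe and all features; boxes span the quartiles and lines mark the medians. The subunit medians of -0.43 and -0.70 lie below those of RefSeq mRNA features (-0.22 and -0.36) and of all features (-0.017 and -0.0032). The 1199 bright features with a RefSeq mRNA probe, not drawn, had -0.23 and -0.55.

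Among the paralogs, RPL22L1, a close relative of RPL22, had a total signal of 12.77 at HH30, 13.21 and 11.51 at HH35, and 10.35 at HH37, or -2.01 ± 0.92 at HH37 against HH35 (adjusted p 0.87 in limma), the lowest of all members. Its AP ratio was -0.96 at HH35, from an intensity of 9435 in posterior and 18884 in anterior tectum, and 0.15 at HH37. RPL22 itself had -0.26 and -0.65. RPL7L1 had an AP ratio of -0.72 at HH35 and -0.21 at HH37, ML ratios of -0.30 and -0.29, and a total signal at HH35 of -1.63 against HH30. RPS27L, a relative of RPS27 induced by p53 in human cells, stood at -0.30 and 0.13 on the AP arrays. RPL3L, known from striated muscle, was measured on AP at HH37 alone, at 0.76. RPS19BP1 gave AP ratios of -0.37 and -0.049. No paralog passed the threshold in limma. With median centring RPL7L1 passed on the AP axis at -0.76, and without AP at HH37 RPL22L1 passed at -0.96, again with a residual error from the ML arrays alone.

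Among the other members, the probe named SMARCAL1 and described as L37a had AP ratios of -0.38 and -0.28. Of the contigs likened to animal proteins, 5 of 7 measured were above 0 on AP at HH35 and 5 of 5 on AP at HH37, with medians of 0.16 and 0.19. The one likened to mouse S29 (TC207642) gave 0.33 and 0.19 on the AP arrays and 0.37 and 0.29 on the ML arrays, positive on all 4. TC206127, likened to chicken L7a, gave 0.51 and 0.083 on AP and 0.20 and 0.51 on ML, while the RPL7A mRNA probe gave -0.42, 0.26, 0.12 and -0.41. TC207037, likened to mouse L12, gave 0.32 and 0.36 on AP, and TC186779, likened to human L7, gave 0.51 on AP at HH37. In total signal, these last 2 stood 0.82 and 0.96 above HH30 at HH35, and TC207037 stood 1.24 above HH35 at HH37. TC206127 stood 0.82 and 0.84 above in these comparisons. Probes of 1 gene thus differed: for RPL7A at HH35 on the AP axis they read -0.42 on the mRNA probe and 0.50 on the GenBank probe.

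TC204162, a contig described by its likeness to a 30s ribosomal protein S2, was the only one of 52 members tested that passed in limma. It was higher in anterior tectum, at -0.52 at HH35 and -0.76 at HH37, a mean of -0.64 ± 0.15 with an adjusted p of 0.042. Its intensity was 425 in posterior and 824 in anterior tectum at HH35, and 54 in posterior and 168 in anterior tectum at HH37. The posterior channel was not above background at HH37. That spot entered the fit through its anterior channel alone, so the size of the ratio there is uncertain and no lower bound of the fold is given. Given its description, it was not counted as a ribosomal protein gene of the chick. On ML it gave 0.32 at HH30 and -0.025 at HH35. The call was lost with plain background subtraction (-0.88) and with the authors' deposited values (-1.12), where the ratio was further from 0. It was also lost when only spots above background in both channels were used (-0.52) and without AP at HH37 (-0.52). With no filter on dim probes, without ML at HH30 and without ML at HH35 it was lost at the same ratio of -0.64. Other contigs of this kind that the arrays placed furthest in Cy5 were TC203130 (0.37) and TC203072 (0.34) on ML at HH35, and TC200043 stood 0.93 above HH30 at HH35 and 1.51 above HH35 at HH37 in total signal. TC203130 gave 0.96 and 1.246 and TC203072 gave 0.12 and 0.93 in the same comparisons, of which none was called.

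The rest of the translation machinery was read from lists of initiation and elongation factors, factors of ribosome biogenesis, regulators of ribosomal protein synthesis and mitochondrial ribosomal proteins. On the AP axis, 8 of 27 initiation factors, 3 of 26 biogenesis factors and 2 of 15 regulators were called higher in anterior tectum in limma, against 3.29% of all features. Among features with a RefSeq mRNA probe 347 of 8426 were called on that side, and among the bright ones of these 144 of 1199. Of the other lists, 0 of 7 elongation factors and 0 of 45 mitochondrial ribosomal proteins were called. No member of the lists was called higher in posterior tectum. In the contrast of AP minus ML, 0 members of these lists were called, against 0.0233% of 30015 features. Most initiation and biogenesis factors were also higher in Cy3 on the ML arrays. Below 0 there were 19 of 27 initiation factors at HH30 and 23 of 27 at HH35, and 21 of 26 biogenesis factors on each. With no dye swap, position and dye cannot be told apart for these calls. The list medians on the AP axis were -0.42 for initiation, -0.28 for elongation, -0.26 for biogenesis, -0.24 for the regulators and -0.16 for the mitochondrial ribosome, against -0.11 for the cytoplasmic ribosomal proteins. The difference between these lists and the ribosomal proteins was not tested.

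EIF2S2, the beta subunit of the factor that brings the initiator tRNA, was the lowest initiation factor, at -0.86 at HH35 and -0.93 at HH37 (adjusted p 0.014 in limma). EIF4G3, a scaffold of the cap complex, was the highest at 0.35 and -0.085, and EIF4EBP1, which holds back the cap-binding protein, had the brightest probe and gave 0.12 and 0.055. NCL, the nucleolar protein nucleolin, was the lowest biogenesis factor at -0.50 and -1.04 (adjusted p 0.028 in limma), and NHP2, of the small nucleolar particles, had the brightest probe and gave 0.26 and -0.083. RPS6KA5, a kinase of the family of RPS6 kinases, was lowest on the list of regulators, at -0.90 and -0.93 (adjusted p 0.015 in limma). It was among the 2 genes called on that list, and its part in ribosomal protein synthesis was not tested. LARP1, which binds ribosomal protein mRNAs, was the highest there at 0.31 and 0.22. Of the elongation list, EEF1A2, which carries tRNAs to the ribosome, gave -0.15 and -1.12, and ETF1, a release factor, was the lowest at -0.38 and -1.03.

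**Figure D5:**
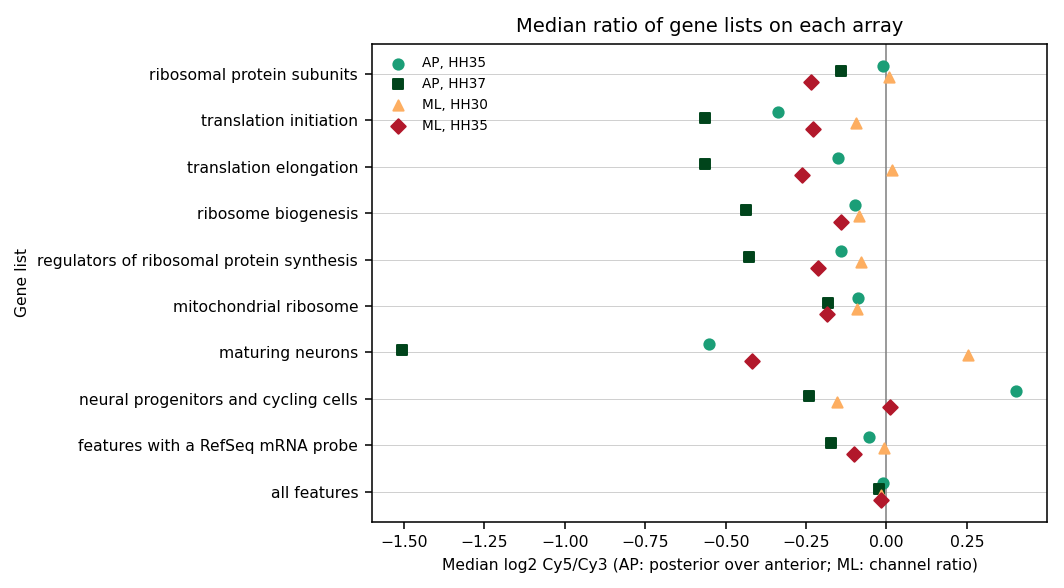
Median log2 Cy5 over Cy3 (x axis) of gene lists (rows) on each of the 4 arrays (markers). Ribosomal protein subunits lie between -0.24 and 0.0090, initiation factors between -0.56 and -0.095, and neuronal markers reach -1.505 on AP at HH37.

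In total signal, the same lists were also lower at the later stages, with 0 members called in limma at either step. At an unadjusted p under 0.05, 2 initiation factors, 1 biogenesis factor and 6 mitochondrial ribosomal proteins were lower at HH35 than at HH30, and 1 initiation factor was higher at HH37 than at HH35, against 1.65% and 1.51% of all features in either direction at these steps. At HH35 against HH30 the medians were -0.78 for initiation (22 of 27 lower), -0.45 for elongation (6 of 7), -0.82 for biogenesis (24 of 26), -0.22 for the regulators (10 of 15) and -0.50 for the mitochondrial ribosome (36 of 45). At HH37 against HH35 they were -0.59 (23 of 27), -0.67 (5 of 7), -0.45 (20 of 26), -0.78 (14 of 14) and -0.52 (35 of 43). The subunit genes, at -0.43 and -0.70, lay within the range of these lists at both steps. Arrays were scaled to equal quantiles, so these are differences relative to the other features of the array.

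Markers of cell types differed in the same comparisons, not all in the same direction. On the AP axis, 10 of 10 markers of maturing neurons were below 0 on both arrays, with medians of -0.55 at HH35 and -1.505 at HH37, and 7 were called higher in anterior tectum in limma, against 3.29% of all features. Their log2 summed signal was 16.59 at HH30, 16.06 to 16.94 at HH35 and 15.51 at HH37. Markers of progenitors and cycling cells had AP medians of 0.40 at HH35 (4 of 16 below 0) and -0.24 at HH37 (9 of 13), and 0 were called. Their log2 summed signal was 15.47 at HH30, 13.86 to 14.28 at HH35 and 13.83 at HH37, and 15 of 16 were lower at HH35 than at HH30, with a median of -1.41. Markers of meninges and fibroblasts had a summed signal of 14.80 at HH30, 10.95 to 11.68 at HH35 and 11.76 at HH37, and blood markers 16.65, 14.64 to 15.54 and 13.99. Of the 4 genes read for blood 3 were lower at each step, while HBE1 stood 0.90 and 0.43 higher. Among these 3 was ALAS1 (-0.75 and -0.71), which was read through a synonym in place of the listed ALAS2 and is not particular to blood. The summed signal of leukocyte markers, of which CD74 was the brightest, was 11.71, 12.22 to 12.29 and 13.32. Of these markers 1 of 4 was lower at HH35 than at HH30, and 2 of 5 were lower at HH37 than at HH35. Oligodendrocyte markers gave 9.69, 9.37 to 9.61 and 10.14. Of the tectal transcription factors, 4 of 7 were called higher in anterior tectum against the same 3.29%, and of the lists for endothelium, leukocytes, oligodendrocytes, astroglia and muscle none had a called member. In AP minus ML, 0 markers of any of these lists were called, against 0.0233% of all features. With no dye swap, position and dye cannot be told apart in the AP calls. The part of these cell types in the ribosomal protein values was not tested.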

How the data were processed

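The deposited spot tables hold foreground and background intensity per spot and the percent of saturated pixels, without normalisation, per the file headers. Their columns are GenePix columns, while the submitters' processing notes name Agilent Feature Extraction. A further deposited file lists a ratio for each probe, and the deposited series table is the log2 of it. No source used here describes how it was made. It runs as Cy3 over Cy5, and turned it correlated with the ratios computed here with r of 0.724 to 0.848. With limma 3.58.1 (R 4.3.3), background was corrected by normexp (offset 50) and ratios by loess (span 0.3, controls weighted 0). A spot counted as measured if, in at least 1 channel, its mean foreground lay 2.6 background SD above its median background. Features measured on at least 2 arrays entered, each by its brightest probe. Ratios were fitted with 1 coefficient per axis (2 residual degrees of freedom, so stage differences are part of the error). Total signals were scaled between arrays (Aquantile) and fitted by stage, with 1 residual degree of freedom from the 2 arrays of HH35. Adjusted p-values are Benjamini-Hochberg over all features, with a threshold of 0.05. The fits were run on simulated arrays with independent noise of equal spread for every feature, unlike the real arrays. The run required known differences to be estimated correctly in both fits, but to be called in the ratio fit alone. Names came from the files and a RefSeq table of assembly GRCg7b, used for names alone, in which 46 member names were found. RPSA is listed there as a synonym of another symbol, and RPS3, RPS7, RPS14, RPS23 and RPL23A were named through accessions. The members and lists were chosen with earlier results of these data known. Named genes, 37 by rule, are the highest and lowest 4 per array and stage step, the 5 furthest per axis, called members, stalk genes, RPSA and paralogs, with list members by extremes and brightness. Figures were drawn with matplotlib 3.10.9. Some members and list genes are not reported here by name, though they stay in the fits and counts.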

Additional observations from a re-analysis of the deposited data

Results flagged for a closer look

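RPL37 lay on opposite sides of 0 on the AP arrays, lower in posterior tectum at HH35 (-0.48) and higher at HH37 (0.59). The ratio at HH37 was 1.07 above that at HH35 on the log2 scale. Each stage is 1 array, so the difference was not tested.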

How the results depend on the processing

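No paired analysis was possible because each group is 1 array. Of 681 values under other settings, 608 kept their direction and side of the threshold or moved within the set limits. The limit for an axis median was the SD between its array medians, combined over both axes for AP minus ML. For ML and for AP minus ML it was wider than the median itself. AP minus ML thus counted as kept in 13 of 13 settings, though its median ran from -0.13 to 0.16. The median AP ratio and both stage medians stayed below 0 in 13 of 13 settings. For the stage medians, these included settings that were not planned. Subtracting the median of the 281 brightest features that are no members was such a setting. That median was above 0 at both steps (0.035 and 0.14), so it could only lower the stage medians. Some settings could not move the AP or stage medians at all and so are no check of them. The trend and robust variance alters the error alone, and leaving out an ML array does not alter the AP ratio. Such values also count among the 608. Among array medians, median centring gave 0.19 (AP at HH35), 0.19 (ML at HH30) and 0.049 (ML at HH35), a loess span of 0.7 gave 0.16 (AP at HH35), and the authors' deposited values gave -0.049 (AP at HH37). The median ML ratio was 0.10 with median centring. The AP calls over all features were 12 with plain subtraction, 4885 with median centring, 0 with the authors' deposited values, 439 with no filter on dim probes, and 449 to 1623 with an array left out. Of subunit genes, 3 were called with median centring and 0 to 1 with an array left out, when the AP median ranged from -0.14 to -0.0099. The HH37 against HH35 median was -0.12 with scaling to the 75th percentile, -0.45 with no filter, which takes in all 41 subunit genes (over the 32 it stayed -0.70), and -0.89 to -0.53 with an HH35 array left out. Some AP ratios turned sign. RPLP1 did with plain subtraction (0.027), median centring (0.036) and a loess span of 0.7 (0.067), RPL37 (-0.086) and RPL39 (-0.032) with median centring. With an array left out, the AP ratio ranged from -0.11 to 0.046 for RPLP1, from -0.48 to 0.59 for RPL37, from -0.96 to 0.15 for RPL22L1 and from -0.44 to 0.0011 for RPL13. ML ratios turned for RPSA with median centring (0.11) and a loess span of 0.7 (0.0045), and for TC204162 (-0.049) and RPLP1 (-0.0086) with the authors' deposited values. With an array left out, the ML ratio ranged from -0.12 to 0.015 for RPSA and from -0.025 to 0.32 for TC204162. HH35 against HH30 turned for RPLP1 with median scaling (0.018) and 75th-percentile scaling (0.057). With an HH35 array left out it ranged from -0.53 to 0.36 for RPLP1 and from -1.26 to 0.44 for RPL22L1, and HH37 against HH35 from -0.57 to 0.076 for RPLP2. The cause was not tested. Signal over background limits the AP array at HH37 most, and leaving out 1 HH35 array leaves the stage values without a test.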
